A study of Mus musculus with 6 samples.

Results

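Bcl2 family transcripts were followed in splenic CD4+ T cells of mice that carried 0, 1 or 2 copies of the Ikzf3 N159S allele. The 10 genes were chosen by their place in the family and were found by their symbols among the 25239 genes that each library listed. They were the pro-survival genes Bcl2, Bcl2l1 and Mcl1, the effectors Bax and Bak1, and the BH3-only genes Bcl2l11, Bbc3, Pmaip1, Bid and Bad. All 10 were listed in every library, and all 10 were among the 12117 genes that passed the filter on low counts and were tested.

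Proteins of the Bcl2 family meet at the outer mitochondrial membrane and set the threshold at which a cell dies by apoptosis. Pro-survival members hold the effectors in check, BH3-only members neutralize the pro-survival ones or engage the effectors directly, and the effectors then form pores that release cytochrome c and start the caspase cascade. Naive T cells depend on IL-7 and on contact with self-peptide for survival, and Bcl2, Mcl1 and Bcl2l11 are the members best known for setting the lifetime of these cells.

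All mice were C57BL/6, and their T cells were purified by FACS as TCRb+CD4+CD44-CD127+ cells of the spleen. CD127 is the alpha chain of the IL-7 receptor, so the sort took CD44-negative cells with this receptor on their surface. The genotypes were Ikzf3 +/+, Ikzf3 +/N159S and Ikzf3 N159S/N159S, with 2 libraries each, and the N159S allele of Ikzf3, which encodes the zinc finger transcription factor Aiolos, had been made by CRISPR-Cas9 genome editing. The allele was carried by the whole strain and was not restricted to T cells. The methods of the study count the samples of each genotype as mice, and the labels name no animal, so which mouse gave which library is not given in the sources used here. P-values set a difference between genotypes against the spread between the libraries, which was estimated in part across genes. Age and sex of the mice are not given in the sources used here. Libraries of B cells were not analysed here.

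Each library held 11696461 to 17317260 reads on genes. The 10 naive T cell markers, among them Cd3e, Cd4, Ccr7, Cd5 and Lef1, were above 1 CPM (reads scaled to a common library size) in every library. Their sum was 7369 and 7144 CPM in Ikzf3 +/+ and 6212 to 6641 CPM in the 4 libraries with the allele, and by edgeR 2 of the 10 fell in Ikzf3 N159S/N159S (Cd5 and Lef1) and 1 in Ikzf3 +/N159S (Il7r), each against Ikzf3 +/+. The 10 B cell markers summed to 185 and 288 CPM in Ikzf3 +/+, 479 and 788 CPM in Ikzf3 +/N159S, and 189 and 124 CPM in Ikzf3 N159S/N159S. In Ikzf3 +/N159S T cells Xist reached 731 and 824 CPM, against 0.773 to 1.98 CPM in the other 4 libraries. The Y-linked gene Ddx3y was at 1.06 and 1.09 CPM in Ikzf3 +/N159S and at 264 to 313 CPM elsewhere. Heterozygosity and this difference in sex-linked transcripts therefore cannot be told apart in any comparison that uses Ikzf3 +/N159S. In bulk RNA, fewer cells of a type and less RNA per cell cannot be told apart either.

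Of the 10 members, Bcl2l1 and Bbc3 passed a test between genotypes. Bcl2l1, which encodes the pro-survival protein Bcl-xL, was 1.68-fold lower in Ikzf3 N159S/N159S T cells than in Ikzf3 +/+. Bbc3, which encodes the BH3-only protein Puma, was 2.01-fold lower in Ikzf3 +/N159S than in Ikzf3 +/+ T cells and overlapped the Ikzf3 +/+ libraries in Ikzf3 N159S/N159S. The others, the effectors and the abundant pro-survival genes Bcl2 and Mcl1 among them, did not pass the test in any of the 3 comparisons of genotypes. These comparisons share libraries, so each one is given by its own values.

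Counts were compared by edgeR's quasi-likelihood test in one fit of all 6 libraries, with p-values adjusted by the Benjamini-Hochberg method over the 12117 genes and a threshold of 0.05. Between Ikzf3 N159S/N159S and Ikzf3 +/+, 1 of the 10 members passed, and 5.26% of all tested genes did. Between Ikzf3 +/N159S and Ikzf3 +/+ it was 1 of 10 against 1.75% of all genes, and between Ikzf3 N159S/N159S and Ikzf3 +/N159S it was 1 of 10 against 1.66%. An unadjusted p under 0.05 was reached by 4, 2 and 2 of the 10 in these comparisons. These are 40, 20 and 20%, beside 18.3, 16.3 and 12.0% of all tested genes. Libraries of the genotypes did not overlap for 6 of 10 members in the first comparison, 5 in the second and 4 in the third, beside 48.3%, 47.1% and 41.1% of all tested genes, so separation of 2 libraries from 2 was about as common among the members as among all genes. A single gene with 2 libraries in each group cannot reach a p below 0.333 in an exact permutation test (two-sided), so the adjusted p-values rest on a spread shared across genes.

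**Figure D1:**
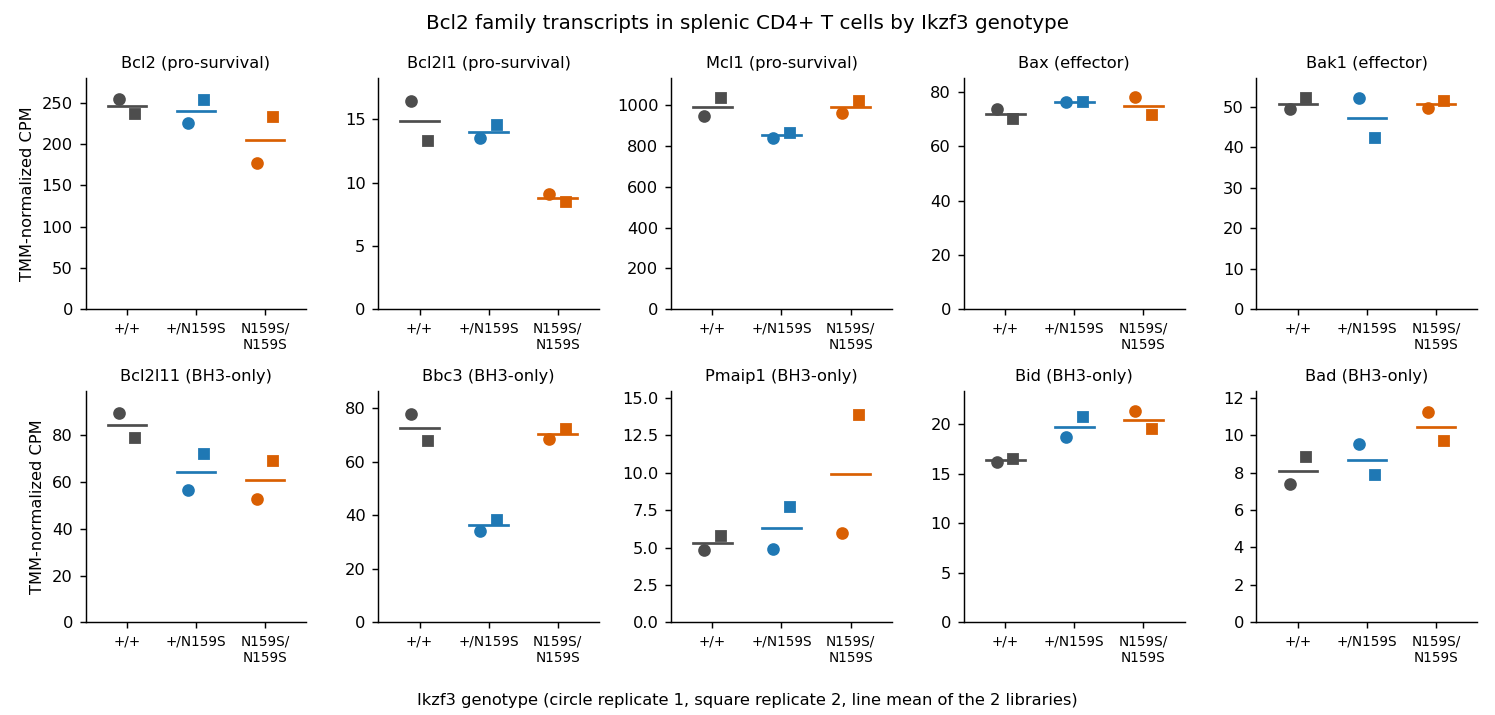
TMM-normalized CPM (y axis, from 0) of the 10 Bcl2 family genes in each of the 6 libraries, by Ikzf3 genotype (x axis). Circles are replicate 1, squares replicate 2 and lines the mean of the 2 libraries. Bcl2l1 is lowest in both Ikzf3 N159S/N159S libraries, Bbc3 is lowest in both Ikzf3 +/N159S libraries, and Pmaip1 is high in a single Ikzf3 N159S/N159S library.

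Levels of the members spanned a range of 2.63 to 276 CPM per kilobase of exon, as means over the 6 libraries, with exon lengths from the RefSeq transcripts of GENCODE M21 on GRCm38. Mcl1, which encodes a short-lived protein needed for T cell survival, had the highest level per length at 276, and Bax followed at 85.7. Bbc3 at 32.9, Bcl2 at 25.1 and Bak1 at 20.8 came next, and the ranges of Bbc3 and Bcl2 and those of Bcl2 and Bak1 overlapped over the libraries. Bcl2l11 at 10.1 and Bid at 8.61 overlapped as well. Bad at 5.76, Bcl2l1 at 4.66 and Pmaip1 at 2.63 CPM per kilobase had the lowest levels, and each overlapped the next. The genes that passed a test therefore differed in level, with Bbc3 at rank 3 and Bcl2l1 at rank 9 in this order.

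**Figure D2:**
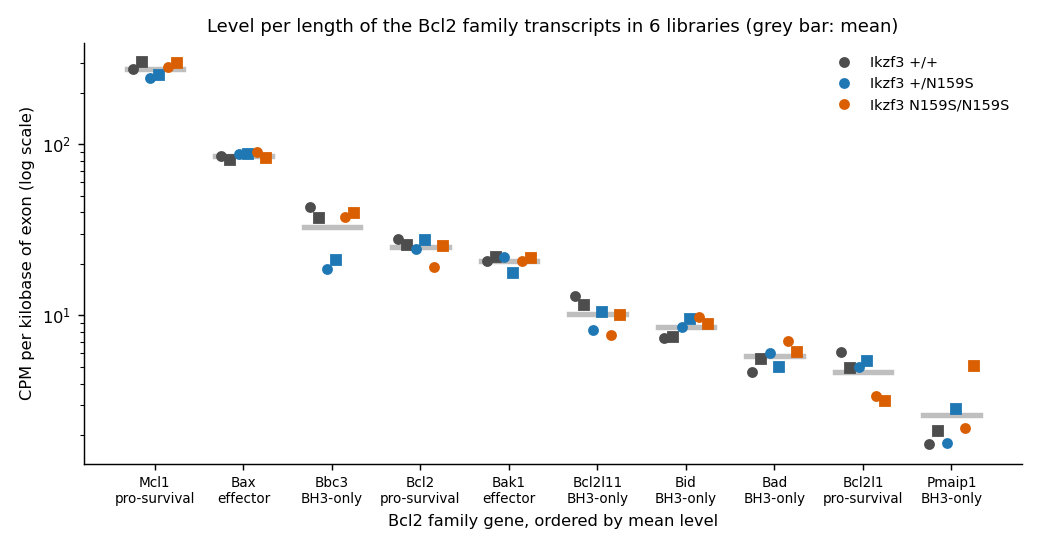
CPM per kilobase of exon on a log axis (y) for the 10 Bcl2 family genes ordered by mean level (x), 1 point per library coloured by genotype (circles replicate 1, squares replicate 2) with a grey bar at the mean of the 6 libraries. Mcl1 and Bax lie above all other members in every library, and Pmaip1 has the lowest mean.

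The stretches before the start sites of Bbc3, Bcl2l1 and Bcl2l11 are shown because the first 2 genes passed a test and Bcl2l11 is the BH3-only member that lay lower in both genotypes with the allele. They were taken from the RefSeq promoter table on GRCm38.p6, which held 15 promoters of 9 members and none that was used for Pmaip1. Each runs 5′ to 3′ on the strand of its gene and ends at the base before the start site, and capitals mark the Foxo core TGTTTAC or its reverse complement. The Bbc3 stretch is chr7:16310011-16310260 on the plus strand, 1 of 3 Bbc3 promoters in the table. It was chosen for its match, which the other Bbc3 promoters lack. That match lies 167 bases before the start.
Bbc3 promoter: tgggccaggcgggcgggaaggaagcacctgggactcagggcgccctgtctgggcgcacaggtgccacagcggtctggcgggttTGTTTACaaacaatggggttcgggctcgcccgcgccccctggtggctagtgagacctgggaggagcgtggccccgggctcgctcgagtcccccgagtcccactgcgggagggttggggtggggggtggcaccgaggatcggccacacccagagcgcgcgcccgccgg
The Bcl2l11 stretch is chr2:128125788-128126037 on the plus strand, 1 of 2 Bcl2l11 promoters in the table. It was chosen for its match, which the other Bcl2l11 promoter lacks. That match is on the other strand, 227 bases before the start.
Bcl2l11 promoter: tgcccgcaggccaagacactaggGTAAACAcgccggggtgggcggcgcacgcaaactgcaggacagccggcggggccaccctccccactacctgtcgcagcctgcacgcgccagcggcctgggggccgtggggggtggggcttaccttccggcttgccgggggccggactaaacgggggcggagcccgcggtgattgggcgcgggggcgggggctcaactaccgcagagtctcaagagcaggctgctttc
The Bcl2l1 stretch is chr2:152831729-152831978 on the minus strand, 1 of 3 Bcl2l1 promoters in the table, and none of the 3 holds a match.
Bcl2l1 promoter: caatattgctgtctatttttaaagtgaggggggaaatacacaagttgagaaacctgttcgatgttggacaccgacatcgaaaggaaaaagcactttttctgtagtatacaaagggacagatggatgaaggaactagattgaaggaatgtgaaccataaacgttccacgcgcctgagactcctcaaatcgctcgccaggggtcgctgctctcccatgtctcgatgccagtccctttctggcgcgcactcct
The 300-base promoters of the table, from 250 bases before to 50 after each start, were searched on both strands for TGTTTAC and for TGGGAA, the core bound by Ikaros family proteins, and no 2 matches overlapped. The Foxo core was found for 2 of the 9 members, Bbc3 and Bcl2l11, and for 4.05% of all genes in the table. The Ikaros core was found for 2 of the 9, Bad and Bax, and for 28.3% of all genes. A gene counted if any of its promoters held the core, so these shares depend on the number of promoters per gene. Over the 32851 single promoters of the table, 3.65% held the Foxo core and 25.6% the Ikaros core. The Foxo core lay in 1 of 3 Bbc3 promoters and 1 of 2 Bcl2l11 promoters. A match describes these letters and does not show that a protein binds there.

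The pro-survival members were led by Mcl1, and the only one to pass a test was Bcl2l1. Bcl2l1 (chromosome 2, 152780668 to 152831728, minus strand, GRCm38) was counted at 16.5 and 13.3 CPM in Ikzf3 +/+, 13.5 and 14.6 CPM in Ikzf3 +/N159S, and 9.08 and 8.50 CPM in Ikzf3 N159S/N159S T cells. Both Ikzf3 N159S/N159S libraries lay below the other 4, which overlapped among themselves. These levels rest on 116 to 229 reads per library.

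Bcl2l1 fell by 0.75 on the log2 scale in Ikzf3 N159S/N159S against Ikzf3 +/+ T cells (standard error 0.18, 95% interval −1.14 to −0.36, edgeR adjusted p = 0.0321). The call stood in all 10 other settings of the analysis, with an edgeR or DESeq2 adjusted p of 0.00184 to 0.0475. It did not stand when any 1 of the 4 compared libraries was left out, with edgeR adjusted p = 0.218 without Ikzf3 +/+ replicate 1, 0.0612 without Ikzf3 +/+ replicate 2, 0.117 without Ikzf3 N159S/N159S replicate 1 and 0.153 without replicate 2 of that genotype, and with log2 differences between −0.90 and −0.60 over all left-out libraries. Against Ikzf3 +/N159S the log2 difference was −0.67 (standard error 0.17, edgeR adjusted p = 0.0888), and Ikzf3 +/N159S against Ikzf3 +/+ gave −0.08 (standard error 0.16, edgeR adjusted p = 0.858).

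Some markers of other cells also differed in the same comparison. The 10 B cell markers summed to 185 and 288 CPM in Ikzf3 +/+ and 189 and 124 CPM in Ikzf3 N159S/N159S T cells. These sums overlapped, and 3 of the 10 fell (Cd79a, Ms4a1 and Fcer2a). The 10 CD8 and NK cell markers summed to 69.7 and 76.0 CPM against 48.4 and 43.1 CPM, without overlap. Of the 7 of them that were tested, Cd8b1, a chain of the CD8 co-receptor, fell from 20.1 and 13.2 CPM to 3.14 and 2.05 CPM, and Gzma rose. Cd8a was far lower than Cd8b1 in Ikzf3 +/+, at 1.80 and 4.64 CPM, and was at 1.22 and 1.03 CPM in Ikzf3 N159S/N159S. Whether the fall of Cd8b1 reflects fewer CD8 cells was not tested. Ncr1 was at 0 in 1 library of each genotype. The naive T cell markers summed to 7369 and 7144 CPM against 6288 and 6419 CPM. The part of these differences in the Bcl2l1 result was not tested.

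Bcl2, the pro-survival gene that IL-7 sustains in resting T cells, lies on chromosome 1 from 106538178 to 106714274. Its level was 255 and 236 CPM in Ikzf3 +/+, 225 and 253 CPM in Ikzf3 +/N159S, and 176 and 233 CPM in Ikzf3 N159S/N159S. The Ikzf3 N159S/N159S libraries were below both Ikzf3 +/+ libraries, the second by only a few CPM, and the log2 difference of −0.26 (standard error 0.13) had an edgeR adjusted p = 0.311. In each genotype the library with more genes detected had the higher Bcl2 level. With a term for that split of the libraries the difference was −0.27 with an edgeR adjusted p = 0.0171, the only setting of 10 in which Bcl2 passed. Without Ikzf3 N159S/N159S replicate 1 the difference was −0.077, and without replicate 2 of that genotype it was −0.46.

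Mcl1 (chromosome 3, 95658788 to 95663176) was counted at 943 and 1035 CPM in Ikzf3 +/+, 837 and 863 CPM in Ikzf3 +/N159S, and 960 and 1019 CPM in Ikzf3 N159S/N159S. The Ikzf3 +/N159S libraries were below the other 4, with a log2 difference of −0.22 from Ikzf3 +/+ (standard error 0.10, edgeR adjusted p = 0.311). The 95% interval of Ikzf3 N159S/N159S against Ikzf3 +/+ ran from −0.22 to 0.22 on the log2 scale, around a difference of 0.00060. Mcl1 made up 76.3 to 83.8% of the reads of the 3 pro-survival members, Bcl2 15.4 to 22.4% and Bcl2l1 0.674 to 1.36%. The Bcl2l1 share was lowest in the Ikzf3 N159S/N159S libraries, at 0.793 and 0.674%.

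The effectors Bax and Bak1, either of which can permeabilize the mitochondrial outer membrane, varied little. Bax (chromosome 7, 45461697 to 45466898) was at 73.5 and 69.8 CPM in Ikzf3 +/+, 76.4 and 76.1 CPM in Ikzf3 +/N159S, and 78.2 and 71.6 CPM in Ikzf3 N159S/N159S. Bak1 (chromosome 17, 27019810 to 27029009) was at 49.5 and 52.1 CPM, 52.3 and 42.2 CPM, and 49.8 and 51.5 CPM in the same order of genotypes. The genotypes overlapped for both genes, apart from Bax in Ikzf3 +/N159S, whose libraries lay just above both Ikzf3 +/+ libraries. In Ikzf3 N159S/N159S against Ikzf3 +/+ the 95% interval of the log2 difference ran from −0.15 to 0.28 for Bax and from −0.27 to 0.26 for Bak1. Bak1 shares exon bases with Ggnbp1 on the other strand, and the strand setting of the counting is not given in the sources used here.

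Bbc3 had the clearest difference among the members, and it appeared in the heterozygous libraries. The gene lies on chromosome 7 from 16308393 to 16318205, and its protein Puma is induced by p53 and by Foxo factors and engages every pro-survival member. Its counts were 904 and 1005 reads for Ikzf3 +/+, 577 and 594 reads for Ikzf3 +/N159S, and 1175 and 983 reads for Ikzf3 N159S/N159S, which are 77.6 and 67.6, 34.1 and 38.3, and 68.4 and 72.0 CPM. Both Ikzf3 +/N159S libraries lay far below the other 4, and Ikzf3 +/+ and Ikzf3 N159S/N159S overlapped.

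Bbc3 fell by 1.005 on the log2 scale in Ikzf3 +/N159S against Ikzf3 +/+ T cells (standard error 0.12, edgeR adjusted p = 0.00224), and ranked 12 of all tested genes by p. It was higher by 0.96 in Ikzf3 N159S/N159S against Ikzf3 +/N159S (standard error 0.11, edgeR adjusted p = 0.00195). Between Ikzf3 N159S/N159S and Ikzf3 +/+ the difference was −0.05, with a 95% interval of −0.29 to 0.20. Both calls stood in all 10 other settings and with each of the 6 libraries left out, where the difference from Ikzf3 +/+ was between −1.10 and −0.91.

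Whether a heterozygote lies off the midpoint of the 2 homozygous genotypes on the log2 scale was tested in the same fit. Bbc3 was the 1 of 10 members that did, beside 1.03% of all tested genes. It lay 0.98 below the midpoint, with a 95% interval of −1.21 to −0.76 and an edgeR adjusted p = 0.00131. Of the 125 genes that departed from the midpoint, 25 lay below it, and Bbc3 had the lowest p of these after the Y-linked genes Ddx3y, Kdm5d, Uty and Eif2s3y. Mcl1 had a departure of −0.22 (standard error 0.09, edgeR adjusted p = 0.375).

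The Ikzf3 +/N159S libraries also differed from the others in sex-linked transcripts and in markers of B cells, regulatory T cells, and effector and memory T cells. All 10 B cell markers had reads in every library, and against Ikzf3 +/+ 5 of them rose and 1 fell. Cd79a, a chain of the B cell receptor, was at 17.6 and 22.9 CPM in Ikzf3 +/+, 32.6 and 47.7 CPM in Ikzf3 +/N159S, and 11.8 and 7.47 CPM in Ikzf3 N159S/N159S. The one that fell was Fcer2a, which encodes the IgE receptor CD23, at 7.73 and 14.1 CPM, 1.06 and 2.25 CPM, and 0.349 and 0.586 CPM in the same order. Markers of regulatory T cells, 6 genes that include Foxp3, summed to 166 and 145 CPM in Ikzf3 +/N159S, against 98.9 to 110 CPM in the other 4 libraries. The 7 markers of effector and memory T cells summed to 199 and 209 CPM in Ikzf3 +/N159S, against 154 to 190 CPM in the others, and 3 of the 7 lay above the midpoint of the homozygous genotypes. Among them Cxcr3, a chemokine receptor of effector cells, was at 5.78 and 4.06 CPM in Ikzf3 +/N159S and at 0.756 to 1.28 CPM elsewhere. Named T cell, B cell, CD8 and effector markers were picked after their values were seen. The part of these differences in the Bbc3 result was not tested. Over the 6 libraries the log2 CPM of Bbc3 was most like that of Uty and Kdm5d, both Y-linked, with Pearson r = 0.989 for each. The next were 8030462N17Rik, Ddx3y and Lcorl, with r = 0.987, 0.986 and 0.983. These are descriptions over 6 libraries that share their genotypes. Any gene low only in the Ikzf3 +/N159S libraries would be like Y-linked genes here, so the likeness is not a separate result. That look-up was made after the values of Bbc3 were seen.

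**Figure D3:**
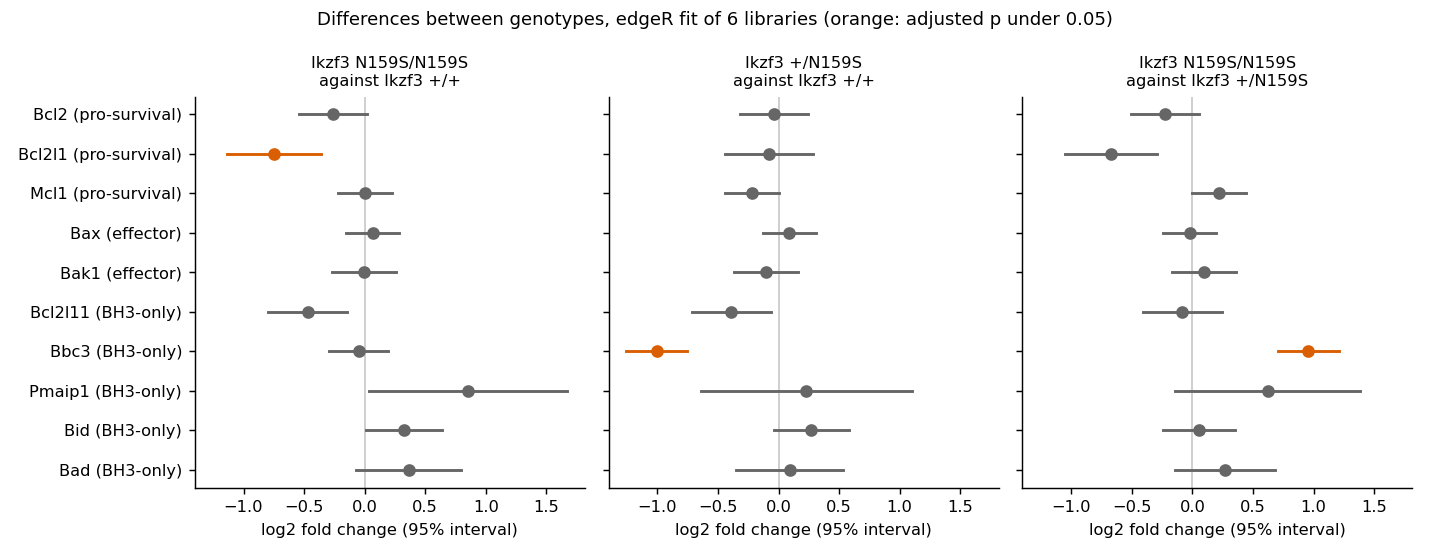
Log2 fold changes (points, x axis) with 95% intervals (lines) of the 10 Bcl2 family genes (y axis) in the 3 comparisons of genotypes, from the edgeR fit of all 6 libraries. Orange marks an adjusted p under 0.05, which holds for Bcl2l1 in Ikzf3 N159S/N159S against Ikzf3 +/+ and for Bbc3 in both comparisons with Ikzf3 +/N159S.

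Bcl2l11, which encodes Bim, the BH3-only protein that removes T cells deprived of cytokine, lay lower in both genotypes with the allele without passing the test. It lies on chromosome 2 from 128126038 to 128162547. Its level was 89.6 and 79.0 CPM in Ikzf3 +/+, 56.8 and 71.9 CPM in Ikzf3 +/N159S, and 52.7 and 69.1 CPM in Ikzf3 N159S/N159S. All 4 libraries with the allele lay below both Ikzf3 +/+ libraries, and the 2 genotypes with the allele overlapped.

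The log2 difference of Bcl2l11 from Ikzf3 +/+ was −0.47 in Ikzf3 N159S/N159S (standard error 0.15, unadjusted p = 0.00879, edgeR adjusted p = 0.106) and −0.39 in Ikzf3 +/N159S (standard error 0.15, edgeR adjusted p = 0.224). In Ikzf3 N159S/N159S it passed the threshold in 3 of 10 other settings, with an edgeR adjusted p = 0.0224 without a filter on low counts, 0.0459 by the likelihood ratio test and 0.000346 with the split by genes detected. In each genotype the library with more genes detected was also the one with more Bcl2l11, as for Bcl2. Over the 6 fits that each omitted a library, the difference ranged from −0.66 to −0.29 and did not pass.

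Pmaip1, the p53 target that encodes Noxa and binds Mcl1, was the least abundant member per length. It was counted at 56 and 86 reads for Ikzf3 +/+, 83 and 120 reads for Ikzf3 +/N159S, and 103 and 189 reads for Ikzf3 N159S/N159S, or 4.81 and 5.79, 4.90 and 7.73, and 5.99 and 13.8 CPM. One library, Ikzf3 N159S/N159S replicate 2, was well above the other 5. The log2 difference between Ikzf3 N159S/N159S and Ikzf3 +/+ was 0.85 (standard error 0.37, edgeR adjusted p = 0.254), and it was 0.18 without Ikzf3 N159S/N159S replicate 2 and 1.37 without replicate 1 of that genotype, where the edgeR adjusted p was 0.0206.

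Bid, which caspase-8 cleaves to link death receptors to mitochondria, was at 16.2 and 16.5 CPM in Ikzf3 +/+, 18.7 and 20.8 CPM in Ikzf3 +/N159S, and 21.4 and 19.6 CPM in Ikzf3 N159S/N159S. Both Ikzf3 +/+ libraries were below the other 4. The log2 difference from Ikzf3 +/+ was 0.32 in Ikzf3 N159S/N159S (standard error 0.14, edgeR adjusted p = 0.252) and 0.27 in Ikzf3 +/N159S (standard error 0.14, edgeR adjusted p = 0.381). Bad, which Akt holds inactive by phosphorylation, was at 7.39 and 8.81 CPM, 9.50 and 7.86 CPM, and 11.2 and 9.67 CPM in the same order of genotypes. The Ikzf3 N159S/N159S libraries were the highest, with a log2 difference of 0.36 from Ikzf3 +/+ (standard error 0.20, edgeR adjusted p = 0.372). Bad shares exon bases with Gpr137 on the other strand, so reads of the 2 genes may not be told apart.

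As a graded change per N159S allele, fitted as a slope over 0, 1 and 2 alleles, 0 of 10 members passed by edgeR's quasi-likelihood test, beside 3.46% of all tested genes. At an unadjusted p under 0.05 there were 3 members, Bcl2l1, Bcl2l11 and Pmaip1, beside 15.2% of all genes. DESeq2 and edgeR's likelihood ratio test each called 1 member, Bcl2l1. Its slope was −0.36 per allele on the log2 scale (standard error 0.10, edgeR adjusted p = 0.0958).

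Ratios of reads within a library do not depend on how libraries are scaled. The ratio of Bbc3 to Bcl2l11 reads was 0.867 and 0.856 for Ikzf3 +/+, 0.600 and 0.532 for Ikzf3 +/N159S, and 1.30 and 1.04 for Ikzf3 N159S/N159S. The 3 genotypes did not overlap. This pair was not among the ratios planned at the start, and it joins 2 members already described as lower. The planned ratio of Bcl2 to Bcl2l11 was 2.84 and 2.99, 3.97 and 3.52, and 3.35 and 3.37 in the same order of genotypes. Here too the 3 genotypes did not overlap. The planned ratio of Bcl2l1 to Bcl2l11 was 0.184 and 0.169, 0.238 and 0.202, and 0.172 and 0.123. For that pair Ikzf3 +/+ and Ikzf3 N159S/N159S overlapped. How often ratios of gene pairs over all tested genes separate the genotypes was not computed. The ratio of Mcl1 to Bcl2l11 was 10.5 and 13.1, 14.7 and 12.0, and 18.2 and 14.8, and only Ikzf3 N159S/N159S lay above the Ikzf3 +/+ range with both libraries. Bcl2 to Bax was 3.46 and 3.38, 2.95 and 3.33, and 2.26 and 3.25 in the same order. Both Ikzf3 N159S/N159S libraries were below both Ikzf3 +/+ libraries, and they lay further from each other than the second of them lay from Ikzf3 +/+. These ratios compare read counts and are not per length.

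**Figure D4:**
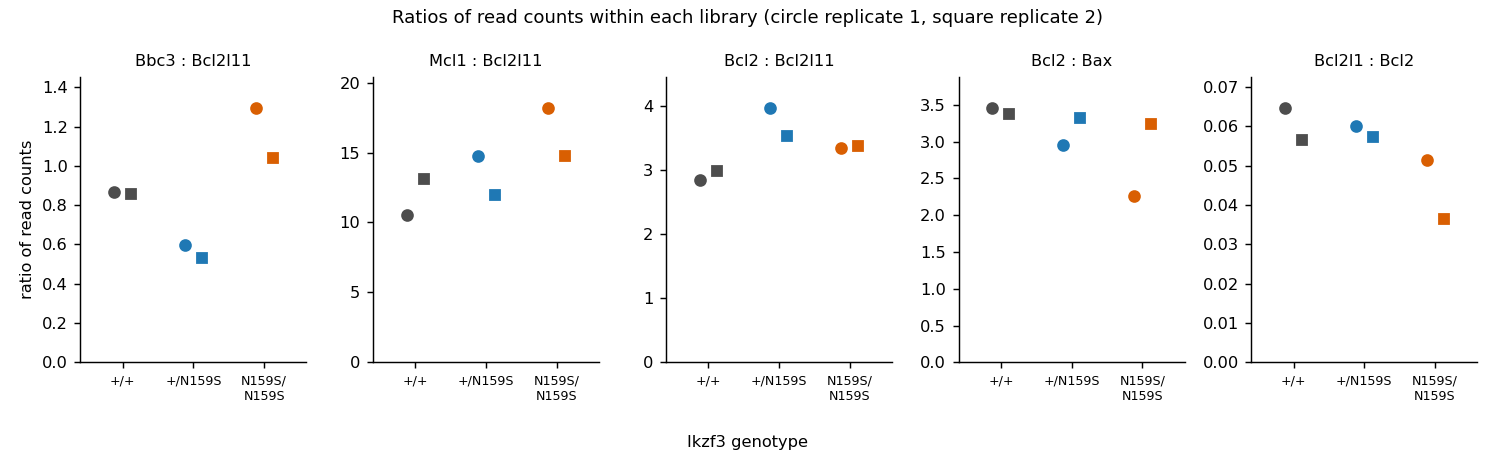
Ratios of the read counts of pairs of Bcl2 family genes (y axes, from 0) within each of the 6 libraries, by Ikzf3 genotype (x axis, circles replicate 1, squares replicate 2). The ratio of Bbc3 to Bcl2l11, a pair not among the ratios planned at the start, separates the genotypes. Its lowest values are in Ikzf3 +/N159S and its highest in Ikzf3 N159S/N159S. The planned ratio of Bcl2 to Bcl2l11 separates them as well, with its lowest values in Ikzf3 +/+ and its highest in Ikzf3 +/N159S.

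Log2 CPM of Bcl2l1 over the 6 libraries was most like that of Gm10336, Zfp280d and Pot1a, with Pearson r = 0.993, 0.991 and 0.991. These are descriptions over 6 libraries of 3 genotypes and carry no test.

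Of 79 other genes of the apoptosis pathway, 73 were tested. In Ikzf3 N159S/N159S against Ikzf3 +/+ T cells 6 rose and 0 fell by edgeR's quasi-likelihood test, or 8.22% beside 5.26% of all genes, and DESeq2, the likelihood ratio test and the fit without a filter each called 1 lower, Il7r. The median log2 difference of the 73 was 0.0013 beside 0.00038 for all tested genes. In Ikzf3 +/N159S against Ikzf3 +/+ 0 rose and 1 fell, or 1.37% beside 1.75% of all genes. There DESeq2 called 1 higher (Jak3) and 2 lower (Il7r and Trp53inp1), and the likelihood ratio test 5 higher and 2 lower. In Ikzf3 N159S/N159S against Ikzf3 +/N159S 0 passed by edgeR's quasi-likelihood test beside 1.66% of all genes, and DESeq2 and the likelihood ratio test called 1 each (Tsc22d3). At an unadjusted p under 0.05 there were 14, 13 and 11 of the 73 in these comparisons, or 19.2, 17.8 and 15.1%, beside 18.3%, 16.3% and 12.0% of all tested genes.

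Among the other Bcl2 family genes, 9 of 15 were tested and 2 rose in Ikzf3 N159S/N159S against Ikzf3 +/+ T cells, or 22.2% beside 5.26% of all genes. Bcl2l2, which encodes the pro-survival protein Bcl-w, was at 3.09 and 2.49 CPM in Ikzf3 +/+, 5.61 and 5.60 CPM in Ikzf3 +/N159S, and 8.20 and 9.08 CPM in Ikzf3 N159S/N159S. The genotypes did not overlap, and the log2 difference between the homozygous genotypes was 1.64 (standard error 0.24, edgeR adjusted p = 0.00260). Bcl2a1b, a pro-survival gene of the A1 group, rose by 1.09 (standard error 0.21, edgeR adjusted p = 0.0105). It shares near-identical copies with other A1 genes, and its count is uncertain for that reason. The call was lost without Ikzf3 +/+ replicate 2 (edgeR adjusted p = 0.133) or Ikzf3 N159S/N159S replicate 1 (0.0784). Bmf, a BH3-only gene, had a log2 difference of −0.20 (standard error 0.42, edgeR adjusted p = 0.860).

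Of the 16 genes of the apoptosome, the caspases and their inhibitors, 0 passed by edgeR in any of the 3 comparisons of genotypes, with 0, 1 and 0 at an unadjusted p under 0.05 (0, 6.25 and 0%, beside 18.3, 16.3 and 12.0% of all genes), and 0 were called by DESeq2 or by the likelihood ratio test. Of the 10 death receptor genes, 1 rose in Ikzf3 N159S/N159S against Ikzf3 +/+ T cells, or 10% beside 5.26% of all genes. In the other comparisons 0 passed by edgeR's quasi-likelihood test. With an unadjusted p under 0.05 there were 2, 3 and 3 (20, 30 and 30%, beside 18.3, 16.3 and 12.0% of all genes). The gene that rose was Tnfrsf1a, which encodes TNF receptor 1. The likelihood ratio test also called it higher in Ikzf3 +/N159S against Ikzf3 +/+. Its level was 46.6 and 46.6 CPM in Ikzf3 +/+, 63.1 and 58.0 CPM in Ikzf3 +/N159S, and 77.0 and 73.9 CPM in Ikzf3 N159S/N159S. Its log2 difference was 0.70 (standard error 0.10, edgeR adjusted p = 0.00261). Of the 11 genes for turnover of the Mcl1 and Bim proteins, 0 passed by edgeR in these comparisons, with 0, 1 and 0 at an unadjusted p under 0.05 (0, 9.09 and 0%, beside the same shares of all genes), and 0 passed by DESeq2 or by the likelihood ratio test.

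Of the 14 genes of the IL-7 receptor and its signals, 3 rose in Ikzf3 N159S/N159S against Ikzf3 +/+ T cells, or 21.4% beside 5.26% of all genes. These were Jak3, the kinase bound to the common gamma chain, by 0.78 (standard error 0.13, edgeR adjusted p = 0.00493), Akt1 by 0.38 (standard error 0.10, edgeR adjusted p = 0.0422) and Gfi1, a transcriptional repressor, by 0.90 (standard error 0.22, edgeR adjusted p = 0.0410). With the replicate number as a block only Jak3 of these passed. Akt1 lost its call without any 1 of the 4 compared libraries, with edgeR adjusted p between 0.0949 and 0.270. Gfi1 lost it without Ikzf3 +/+ replicate 1 (edgeR adjusted p = 0.231) or Ikzf3 N159S/N159S replicate 1 (0.262). Il7r, the gene of the sorting marker CD127, was at 1289 and 1217 CPM in Ikzf3 +/+, 885 and 899 CPM in Ikzf3 +/N159S, and 945 and 1027 CPM in Ikzf3 N159S/N159S. It fell by 0.49 in Ikzf3 +/N159S against Ikzf3 +/+ (standard error 0.10, edgeR adjusted p = 0.0368), and differed by −0.35 in Ikzf3 N159S/N159S (edgeR adjusted p = 0.0799). The latter passed in 4 of 10 other settings, with an adjusted p of 0.0130 by DESeq2 and, by edgeR, 0.0419 without a filter, 0.0283 by the likelihood ratio test and 0.00191 with the split by genes detected. The Ikzf3 +/N159S call was lost without any 1 of the libraries except Ikzf3 N159S/N159S replicate 1, with edgeR adjusted p between 0.0511 and 0.171. Since CD127 was part of the sort, its transcript is not independent of how the cells were chosen.

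Of the 13 genes of p53 and Foxo input, 0 passed by edgeR in the 3 comparisons of genotypes, with 5, 3 and 4 at an unadjusted p under 0.05, or 38.5, 23.1 and 30.8% beside 18.3, 16.3 and 12.0% of all genes. DESeq2 and the likelihood ratio test each called 0 in the first, Trp53inp1 in the second and Tsc22d3 in the third. Trp53 was at 170 and 165 CPM in Ikzf3 +/+, 174 and 157 CPM in Ikzf3 +/N159S, and 170 and 164 CPM in Ikzf3 N159S/N159S, with overlap of all 3 genotypes. Foxo1 was at 415 and 368 CPM, 370 and 410 CPM, and 316 and 319 CPM in the same order, lowest in both Ikzf3 N159S/N159S libraries. It differed by −0.30 in Ikzf3 N159S/N159S against Ikzf3 +/+ (standard error 0.10, edgeR adjusted p = 0.124) and by −0.01 in Ikzf3 +/N159S (edgeR adjusted p = 0.985). With the split by genes detected the former had an edgeR adjusted p = 0.00547, the only setting of 10 in which it passed. That split called 5 of the 13 genes in that comparison, and 1756 of all genes.

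**Figure D5:**
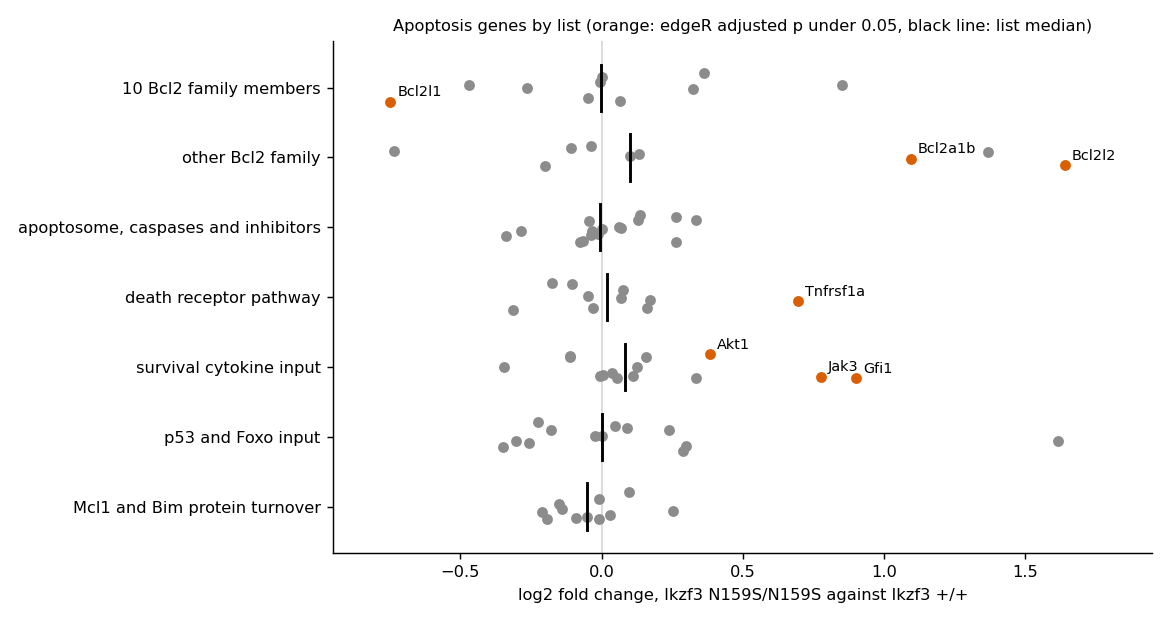
Log2 fold changes in Ikzf3 N159S/N159S against Ikzf3 +/+ T cells (x axis) for the 10 Bcl2 family members and for 6 lists of other apoptosis genes (y axis), 1 point per tested gene. Orange marks an edgeR adjusted p under 0.05 and black lines the median of each list, and the named genes are Bcl2l1, which fell, and 6 genes that rose.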

How the data were processed

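RNA was sequenced from FACS-purified splenic CD4+ T cells, 2 libraries for each of 3 Ikzf3 genotypes. Per the labels and the methods of the study, the authors trimmed reads with Trimmomatic 0.38.1, mapped them to mm10 with HISAT2 2.2.1, counted them on refGene genes with HTSeq 2.0.2 and deposited raw counts per gene. Whether counting used strand is not given in the sources used here. Depth was 11696461 to 17317260 reads on genes per library.

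The analysis used edgeR 4.0.16 under R 4.3.3 (filterByExpr with a minimum count of 10, TMM, quasi-likelihood fit with 1 coefficient per genotype, Benjamini-Hochberg adjustment over 12117 genes, threshold 0.05). CPM values were scaled by the TMM library sizes. Log2 CPM for likeness used a prior count of 2. Alternatives were DESeq2 1.42.0, its size factors, library totals alone, no filter, at least 10 counts in every library, a replicate block, the likelihood ratio test, the earlier quasi-likelihood test, the genotypes compared alone, a term for genes detected, and each library left out. The scripts were tested on simulated data. Whether the replicate numbers pair the libraries is not given in the sources used here, and the main fit did not pair them (the closing section gives a check). The members, the gene lists, the motifs and the split by genes detected were chosen with earlier results of these data known. Named genes were the 10 members, genes of the lists past the threshold (at most 5 per list), and Il7r, Foxo1, Trp53, Bmf and Bcl2a1b. Some genes were named after their values were seen, as the text says.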

Additional observations from a re-analysis of the deposited data

How the results depend on the processing

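Bbc3 kept its calls in both comparisons with Ikzf3 +/N159S and its departure from the midpoint under all 10 other settings (9 for the departure, which needs all genotypes) and all 6 left-out fits. Bcl2l1 in Ikzf3 N159S/N159S against Ikzf3 +/+ kept its call under the 10 other settings and lost it without any 1 of the 4 compared libraries. The number of members called in that comparison was 3 without a filter (Bcl2l1, Bcl2l11 and Pmaip1), 2 by the likelihood ratio test (Bcl2l1 and Bcl2l11), 4 with the split by genes detected (these 3 and Bcl2), and 0 to 1 with a library left out, the 1 being Pmaip1 without Ikzf3 N159S/N159S replicate 1 and Bcl2l1 without either Ikzf3 +/N159S library. The split called 2 members in Ikzf3 +/N159S against Ikzf3 +/+ (Bbc3 and Bcl2l11). It, the likelihood ratio test and the fit without a filter called 2 in Ikzf3 N159S/N159S against Ikzf3 +/N159S (Bbc3 and Bcl2l1). Per allele, DESeq2, no filter and the likelihood ratio test called 1 (Bcl2l1) and the split 1 (Bcl2l11). The cause of these differences was not tested.

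Over all genes the count in Ikzf3 N159S/N159S against Ikzf3 +/+ was 637, and 1042 by the likelihood ratio test, 1756 with the split and 221 to 751 with a library left out. In Ikzf3 +/N159S against Ikzf3 +/+ it was 212, and 341 by DESeq2, 542 without a filter, 640 by the likelihood ratio test, 1422 with the split and 68 to 250 with a library left out. In Ikzf3 N159S/N159S against Ikzf3 +/N159S it was 201, and 486 without a filter, 473 by the likelihood ratio test, 877 with the split and 62 to 205 with a library left out. For the other apoptosis genes the counts of 6, 1 and 0 in these comparisons became 15, 15 and 8 with the split. In the second they were 3 by DESeq2, 7 without a filter, 7 by the likelihood ratio test, 0 with the block and 0 with only the genotypes compared. In the third they were 1 by DESeq2, 2 without a filter and 1 by the likelihood ratio test. With a library left out they were 3 to 7, 0 to 1 and 0 to 1.

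Deviations of same-numbered libraries correlated at −0.17, −0.22 and 0.24, which cannot settle whether the replicate numbers pair the libraries. Replicate 1 had more genes detected in Ikzf3 +/+, and replicate 2 had more in the other genotypes. With a replicate block the members called stayed at 1 in each comparison of genotypes, and all genes called were 514, 170 and 168. The block ended the calls of Akt1, Gfi1 and Il7r.

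Some differences changed sign, and not all of them were near 0 in the main fit. There Pmaip1 differed by 0.62 in Ikzf3 N159S/N159S against Ikzf3 +/N159S and by 0.23 in Ikzf3 +/N159S against Ikzf3 +/+. Bmf differed by −0.20 in Ikzf3 N159S/N159S against Ikzf3 +/+. With library totals only, Bak1 in Ikzf3 N159S/N159S against Ikzf3 +/+ was 0.0037 (0.0073 without a filter), and in Ikzf3 +/N159S against Ikzf3 +/+ Bcl2 was 0.0094, Foxo1 0.038, Trp53 0.028 and Bmf 0.042. Bmf there was 0.0070 without a filter, 0.0027 with at least 10 counts in every library and 0.0043 with the split. With a library left out, Ikzf3 N159S/N159S against Ikzf3 +/+ ranged from −0.065 to 0.072 for Mcl1, −0.00035 to 0.14 for Bax, −0.042 to 0.036 for Bak1, −0.14 to 0.053 for Bbc3, −0.028 to 0.040 for Trp53 and −0.66 to 0.11 for Bmf. Ikzf3 +/N159S against Ikzf3 +/+ ranged from −0.12 to 0.045 for Bcl2, −0.23 to 0.073 for Bcl2l1, −0.27 to 0.043 for Bak1, −0.12 to 0.53 for Pmaip1, −0.057 to 0.24 for Bad, −0.090 to 0.081 for Foxo1, −0.097 to 0.062 for Trp53 and −0.92 to 0.53 for Bmf. Ikzf3 N159S/N159S against Ikzf3 +/N159S ranged from −0.090 to 0.056 for Bax, −0.047 to 0.26 for Bak1, −0.27 to 0.10 for Bcl2l11, −0.045 to 1.14 for Pmaip1 and −0.017 to 0.13 for Bid. Depth was lowest for Pmaip1, at 56 to 189 reads per library, and its 95% interval in Ikzf3 N159S/N159S against Ikzf3 +/+ ran from 0.034 to 1.67.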

Other observations

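Bbc3 was 1 of 25 genes that lay below the midpoint of the homozygous genotypes in Ikzf3 +/N159S T cells, and 4 of the 25 were Y-linked. The genes next after Bbc3 by p, named after their values were seen, were Cxcr4, Per1 and Zfp36l2. Cxcr4, the receptor for the chemokine Cxcl12, was at 175 and 179 CPM in Ikzf3 +/+, 99.0 and 86.2 CPM in Ikzf3 +/N159S, and 136 and 148 CPM in Ikzf3 N159S/N159S. It lay 0.78 below the midpoint on the log2 scale, written as a departure of −0.78 (edgeR adjusted p = 0.00212). Zfp36l2, an RNA-binding protein that promotes decay of its target mRNAs, was at 1758 and 2140 CPM, 1037 and 1010 CPM, and 1769 and 1668 CPM in the same order, a departure of −0.84 (edgeR adjusted p = 0.00403). Per1, a gene of the circadian clock, was at 199 and 231 CPM, 155 and 142 CPM, and 315 and 299 CPM, a departure of −0.79 (edgeR adjusted p = 0.00212).

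Cd69 and Txnip, at ranks 13 and 14 by p of the 25 genes below the midpoint, were also named after their values were seen. Nacc2, Tagap, Ube2s and Mlxip ranked before them, and Stip1, Hsp90aa1 and Dnaja1 were among those after. Cd69 is a receptor that rises early on T cell activation and restrains exit from lymphoid tissue. Txnip is a Foxo-sensitive regulator of glucose uptake. Cd69 was at 367 and 350 CPM in Ikzf3 +/+, 243 and 249 CPM in Ikzf3 +/N159S, and 349 and 448 CPM in Ikzf3 N159S/N159S, a departure of −0.62 (edgeR adjusted p = 0.0183). Txnip had a departure of −0.56 (edgeR adjusted p = 0.0289). For Cxcr4, Per1, Zfp36l2, Cd69 and Txnip, as for Bbc3, both Ikzf3 +/N159S libraries were below the other 4. All of these comparisons rest on the same Ikzf3 +/N159S libraries, in which the genotype and the difference in sex-linked transcripts cannot be told apart.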
